A study of Homo sapiens with 12 samples.

Results

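Respiratory complex I, the NADH:ubiquinone oxidoreductase of the mitochondrial inner membrane, was followed through the transcripts of its nuclear-encoded subunits and of the factors that assemble it. The genes were those whose single listed symbol began with NDUFA, NDUFB, NDUFC, NDUFS, NDUFV or NDUFAF followed by a number, with antisense and divergent transcripts (NDUFB2-AS1, NDUFV1-DT and NDUFV2-AS1) left out. This gave 40 of the 19775 genes on the arrays, of which 32 are subunits and 8 are assembly factors. The subunit NDUFAB1 does not match this rule and is read with other genes below. NDUFS5, NDUFS8 and NDUFC2 were listed only on probe sets shared with other symbols, and NDUFA4 and NDUFA4L2 were not analysed here. The cells were U937, a human myeloid leukemia line, and they received JS-K, which sets nitric oxide free inside cells, for 90 min, 4 h or 24 h, or its DMSO vehicle. Each of the 4 groups had 3 arrays labelled as biological replicates. The labels state no dose and no exposure time for the vehicle. A single vehicle group served all times, and time in culture and JS-K therefore cannot be told apart.

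Complex I takes electrons from NADH, passes them along a chain of iron-sulfur clusters to ubiquinone, and pumps protons across the inner membrane. Its peripheral arm holds the N module, where NADH is oxidised, and the Q module, where ubiquinone is reduced, while a proximal and a distal membrane arm hold the proton channels. The 7 core subunits made in the nucleus sit in the N and Q modules, and the other nuclear subunits are accessory. Assembly factors build the modules and leave before the enzyme is finished. In myeloid cells the complex is a main consumer of NADH and a source of superoxide, and its thiols are known targets of nitric oxide.

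Levels below are the deposited GCRMA values on the log2 scale, 1 probe set a gene. Differences are log2 differences ± SE between means of 3 arrays, JS-K minus vehicle or later minus earlier time. Calls are differences with an adjusted p under 0.05 in limma (Benjamini-Hochberg over all 19775 genes). In these bulk samples, less RNA per cell and fewer cells holding it cannot be told apart.

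All 40 genes had a mean over the arrays of at least 4, the level under which signal is low, and 39 had a mean of at least 8. NDUFAF5 was the exception at 7.77. Shares of called genes are therefore given both over all genes and over the 5159 genes with a mean of at least 8. The label of a myeloid line held: LYZ, ITGB2 and CEBPA had means over 10 in every group, and 8 of 10 measured myeloid markers had a mean of at least 4, with MPO and FCGR1A near background. None of the 14 measured T cell, B cell, erythroid and epithelial markers reached 4, and of 4 fibroblast markers only COL1A1 did. The summed myeloid markers, on the log2 scale, lay at 14.20 to 14.36 on the vehicle arrays and 14.52 to 14.68 on the 90 min arrays. They lay at 14.47 to 15.00 on the 4 h arrays and 14.70 to 14.72 on the 24 h arrays, with LYZ the brightest marker. Of single myeloid markers, CSF1R (2.80), SPI1 (1.58), ITGAM (1.57) and LYZ (0.53) were called higher than vehicle at 24 h. CSF3R (−0.57) and CEBPA (−0.30) were called lower. The part of these shifts in the results was not tested. Among the 4 h arrays, replicate 2 had the lowest upper quartile of the series (6.20) and was the lowest of its group for 36 of the 40 genes. Poly-A spikes, which are control RNAs of bacterial genes, had mean levels of 7.02 on the 4 h arrays and 8.47 on the 24 h arrays, with 3.08 on the 90 min arrays and 3.04 on the vehicle arrays. The ACTB difference between 3' and 5' probe sets, which grows as RNA is shortened, was 0.81, 1.15 and 0.93 on the 4 h arrays, of which replicate 1 lay within the vehicle range, 0.91 to 0.99 on the 24 h arrays, and 0.77 to 0.83 in vehicle. The same difference for GAPDH averaged −0.060 at 4 h, 0.13 at 24 h and 0.0048 in vehicle. Spike levels lay higher on every 4 h array than on any vehicle or 90 min array, and higher again on every 24 h array. Spike level and JS-K exposure therefore cannot be told apart at these times. The part of spikes and of these differences in comparisons with the 4 h or 24 h arrays was not tested. This holds for comparisons with vehicle and between times. Neither the 90 min nor the vehicle arrays had spike levels over 4.

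Promoter sequences of 37 of the 40 genes were in the RefSeq table of GRCh38.p14, which spans 250 bases before to 50 bases after a gene's start. NDUFAF6, NDUFB5 and NDUFB9 had no entry. Sites are shown because genes of the respiratory chain are known for sites of the nuclear respiratory factor NRF1, of ETS factors such as GABPA, and of YY1. Letters were searched on both strands, a palindromic hit counting once. The YY1 letters AANATGGC were in 11 of the 37 promoters (29.7%), against 6.82% of all 27305 promoters and 7.92% of 15842 promoters of protein-coding genes. All 11 were subunit genes, and in 10 of them the match began 9 to 43 bases after the start of the gene. The following sites have the matching letters in capitals and are read along the gene's strand, so that the motif on the other strand appears as its reverse complement.
NDUFS1 at chr2:206159413-206159436, minus strand: ccgaggccGCCATATTgaataagc
NDUFS3 at chr11:47579081-47579104, plus strand: atctgagtAACATGGCggcggcgg
NDUFS7 at chr19:1383916-1383939, plus strand: ccgaggccAAGATGGCggtgctgt
NDUFS4 at chr5:53560652-53560675, plus strand: cctgcagcAAGATGGCggcggtgt
NDUFS6 at chr5:1801407-1801430, plus strand: agcggcgcAAAATGGCggcggcga
NDUFA3 at chr19:54102868-54102891, plus strand: cggagacaAAGATGGCtgcgagta
NDUFA6 at chr22:42090732-42090755, minus strand: gctttggcAAGATGGCggggagcg
NDUFA7 at chr19:8321346-8321369, minus strand: gcggacggAAGATGGCgtccgcca
NDUFA9 at chr12:4649116-4649139, plus strand: tgtgggaaAAGATGGCggctgccg

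The NRF1 motif, searched with 1 free base, was in 7 of the 37 promoters (18.9%), against 6.28% of all promoters and 8.57% of those of protein-coding genes. NDUFB4 held 3 matches and NDUFA3 held 2. In NDUFA8 a pair of matches overlapped at the start of the gene. The sites of 4 subunit genes and of the assembly factor NDUFAF5, all lower at 24 h, are shown with the matching letters in capitals.
NDUFA8 at chr9:122159766-122159791, minus strand: tgccggatGCGCATGCGCaggcgccg
NDUFA8 at chr9:122159760-122159785, minus strand: atgcgcatGCGCAGGCGCcgtgtggc
NDUFA9 at chr12:4649026-4649051, plus strand: cttggttaGCGCTTGCGCagacaggc
NDUFA11 at chr19:5903871-5903896, minus strand: ggtccccgGCGCGTGCGCgcgatcca
NDUFA12 at chr12:95003796-95003821, minus strand: ctagctctGCGCACGCGCagagccac
NDUFAF5 at chr20:13785016-13785041, plus strand: ccgcgctgGCGCATGCGCacaaaaag

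The ETS letters CCGGAAG were in 6 of the 37 promoters (16.2%, against 10.7% of all), the E-box CACGTG in 4 (10.8%, against 7.43%) and the SP1 letters GGGCGGG in 10 (27%, against 32.9%). Among promoters of protein-coding genes the shares were 14.2% for ETS, 8.88% for the E-box and 44.4% for SP1. Of the assembly factors, none of 7 held the YY1 letters, and 1 each held the NRF1, ETS, E-box and SP1 letters. The 160 bases before the start are printed for NDUFAF4 and NDUFAF2, the assembly factors with the largest falls at 24 h. Capitals mark the ETS letters in NDUFAF4 and the SP1 letters in NDUFAF2.
NDUFAF4 at chr6:96897892-96898051, minus strand: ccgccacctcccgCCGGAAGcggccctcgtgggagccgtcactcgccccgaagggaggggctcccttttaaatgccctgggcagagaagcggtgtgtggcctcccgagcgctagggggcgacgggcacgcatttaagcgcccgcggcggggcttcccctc
NDUFAF2 at chr5:60945045-60945204, plus strand: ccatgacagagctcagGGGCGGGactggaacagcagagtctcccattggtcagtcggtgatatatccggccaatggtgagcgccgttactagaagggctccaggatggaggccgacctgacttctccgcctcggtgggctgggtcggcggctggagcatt
Of the 22 genes called lower at 24 h and the 15 others, YY1 letters were in 6 and 5, NRF1 letters in 5 and 2, and ETS letters in 3 and 3. A match in these windows is a description and says nothing of binding.

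After 24 h of JS-K, transcripts of complex I were lower than in vehicle across both arms of the enzyme, and those of several assembly factors fell most. Of the 40 genes 25 were lower, 1 was higher and 14 did not pass the test. NDUFAF4, which acts early on the Q module, was 3.38-fold lower and NDUFAF2, which acts late on the N module, 3.3-fold lower. The core subunit NDUFS3 was 2-fold lower and NDUFV1, which binds NADH, 1.82-fold lower. NDUFAF1 was the gene that rose, by 0.29 ± 0.09.

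The share called lower at 24 h was 62.5% of the 40 genes, with a background of 18.9% of all genes and 42.3% of the genes with a mean of at least 8. Called higher was 2.5%, with backgrounds of 17.8% and 28.8%. The median difference was −0.39 for the 32 subunits, of which 20 were lower and none higher, and −0.85 for the 8 assembly factors, of which 5 were lower and 1 higher. With the mean of probe sets the median of assembly factors was −0.51. All genes had a median of 0.056, and genes with a mean of at least 8 had a median of −0.13. For 30 of the 40 genes the 24 h arrays all lay below the vehicle arrays, as they did for 21.7% of all genes and 47.3% of those with a mean of at least 8. Median subunit levels were 10.88 ± 0.10 at 24 h and 11.28 ± 0.01 in vehicle (SD, n = 3), and median levels of assembly factors were 8.52 ± 0.04 at 24 h and 9.59 ± 0.04 in vehicle. The count of lower genes stayed between 22 and 25 when any 1 array of the comparison was left out. It was 30 without 4 h replicate 2, which enters the fit only through the spread. The share of all genes called in these reduced fits was not counted.

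**Figure D1:**
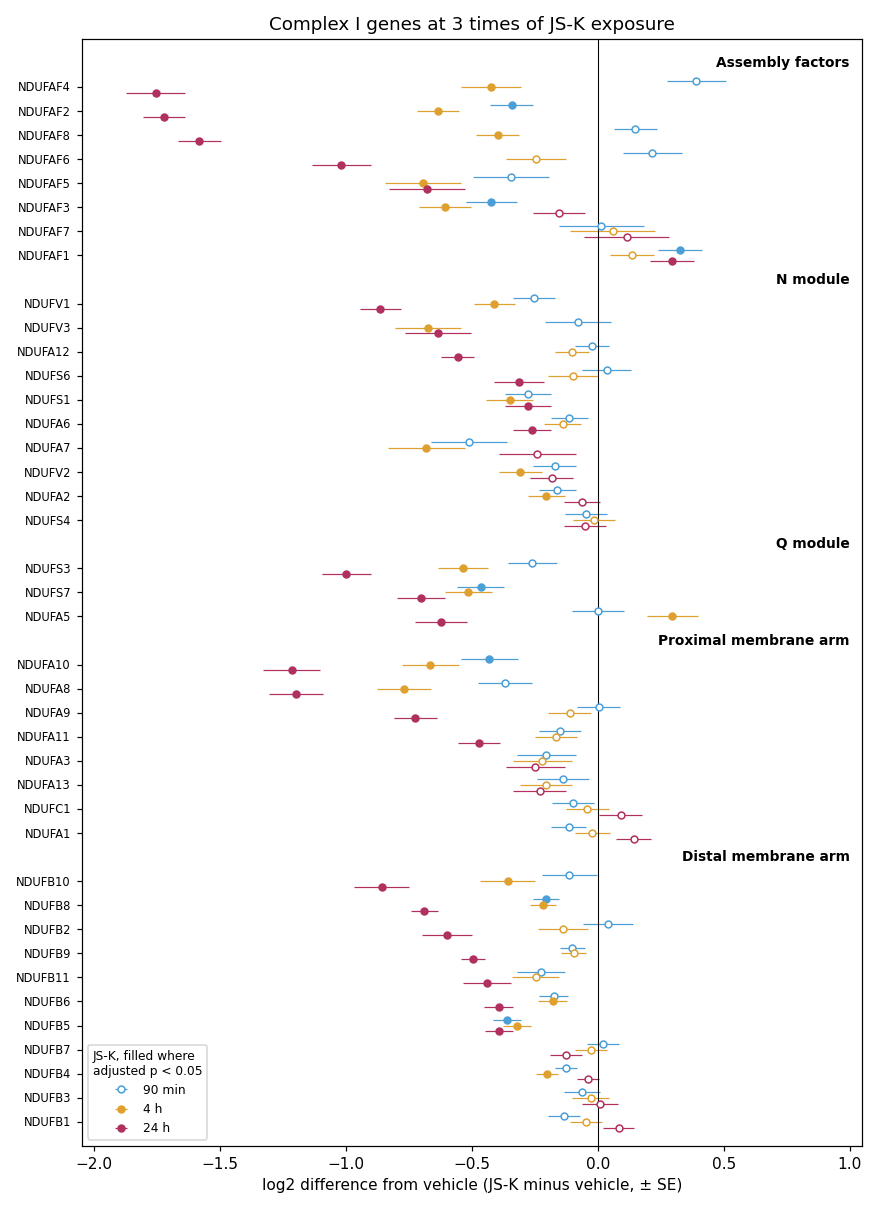
Log2 differences from vehicle (x axis, JS-K minus vehicle, ± SE, n = 3 and 3) of the 40 genes (y axis), grouped by role and ordered by the difference at 24 h, with a filled point where the adjusted p was under 0.05. At 24 h (lowest of the 3 points of a gene) NDUFAF4, NDUFAF2 and NDUFAF8 lie furthest to the left, and 25 genes have filled points below 0.

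The assembly factors divided into genes with large falls, genes with early or passing falls, and 2 whose brightest probe set was not lower. NDUFAF4, on chromosome 6 (96889315 to 96897891) of GRCh38.p14, encodes a partner of NDUFAF3 that binds the Q module intermediate. Its levels were 9.81, 10.13 and 10.02 on the vehicle arrays, 10.40, 10.39 and 10.34 at 90 min, 9.58, 9.73 and 9.38 at 4 h and 8.34, 8.36 and 8.0 at 24 h. The 3 arrays at 90 min lay above vehicle, and those at 4 h and 24 h lay below it, without overlap at any time. The difference from vehicle was 0.39 ± 0.12 (adjusted p = 0.0599) at 90 min, −0.42 ± 0.12 (adjusted p = 0.0205) at 4 h and −1.76 ± 0.12 (adjusted p = 1.39e-07) at 24 h. The 4 h call was lost without vehicle replicate 2 or 3 (adjusted p = 0.0666 and 0.0683) and after quantile normalization (0.0799). Between times it fell by 0.82 ± 0.12 at 4 h against 90 min and by 1.33 ± 0.12 at 24 h against 4 h. A second, dimmer probe set gave −1.28 at 24 h (adjusted p = 0.00105).

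NDUFAF2, on chromosome 5 (60945205 to 61153026), is a paralogue of the subunit NDUFA12 and holds its place on the N module during late assembly. Levels were 10.06, 10.22 and 10.21 on the vehicle arrays, 9.84, 9.81 and 9.81 at 90 min, 9.55, 9.45 and 9.58 at 4 h and 8.42, 8.61 and 8.30 at 24 h. Each later time lay wholly below the earlier one, and the largest step was that between 4 h and 24 h (−1.09 ± 0.08). Against vehicle the differences were −0.34 ± 0.08, −0.64 ± 0.08 and −1.72 ± 0.08 (adjusted p = 9.34e-09) at 90 min, 4 h and 24 h. The 90 min call was lost without vehicle replicate 2 or 3 or any 1 of the 90 min arrays (adjusted p of 0.0562 to 0.0931). NDUFA12 itself fell at 24 h by 0.56 ± 0.07 and gave −0.10 ± 0.07 (adjusted p = 0.198) at 4 h.

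NDUFAF8, on chromosome 17 (81239311 to 81241310), stabilises NDUFAF5, which hydroxylates an arginine of the core subunit NDUFS7. The levels of NDUFAF8 were 10.20, 10.32 and 10.19 on the vehicle arrays, 10.54, 10.30 and 10.31 at 90 min, 9.93, 9.70 and 9.88 at 4 h and 8.64, 8.73 and 8.59 at 24 h. Arrays at 4 h and at 24 h lay below vehicle without overlap, and those at 90 min overlapped it. The differences were −0.40 ± 0.09 at 4 h and −1.58 ± 0.09 (adjusted p = 2.02e-08) at 24 h. Its 2 other probe sets had means under 4 and showed no fall. NDUFAF5 had levels of 8.29, 8.10 and 8.22 on the vehicle arrays, 7.82, 7.84 and 7.91 at 90 min, 7.67, 7.08 and 7.78 at 4 h and 7.57, 7.46 and 7.55 at 24 h. All 9 JS-K arrays lay below vehicle, with differences of −0.35 ± 0.15 (adjusted p = 0.233) at 90 min, −0.69 ± 0.15 at 4 h and −0.68 ± 0.15 at 24 h, and 24 h against 4 h gave 0.016 ± 0.15 (adjusted p = 0.965).

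NDUFAF6, a factor of early membrane arm assembly, gave −0.25 ± 0.12 (adjusted p = 0.0949) at 4 h and fell by 1.02 ± 0.12 at 24 h. NDUFAF3, the partner of NDUFAF4, followed another course. Its levels were 9.57, 9.70 and 9.65 on the vehicle arrays, 9.26, 9.14 and 9.24 at 90 min, 9.11, 8.78 and 9.20 at 4 h and 9.36, 9.58 and 9.51 at 24 h. The arrays at 90 min and 4 h lay below vehicle, while those at 24 h overlapped it. NDUFAF3 fell by 0.42 ± 0.10 at 90 min and by 0.61 ± 0.10 at 4 h, gave −0.15 ± 0.10 (adjusted p = 0.21) at 24 h, and was higher at 24 h than at 4 h by 0.45 ± 0.10. The 90 min call of NDUFAF3 was lost when replicate 2 or 3 of either group was left out (adjusted p of 0.0586 to 0.0914). NDUFAF1, a founding part of the complex that builds the proximal membrane arm, had levels of 8.94, 8.90 and 8.94 on the vehicle arrays, 9.29, 9.15 and 9.33 at 90 min, 9.16, 8.87 and 9.16 at 4 h and 9.24, 9.26 and 9.16 at 24 h. Arrays at 90 min and 24 h lay above vehicle, and replicate 2 at 4 h fell below it. NDUFAF1 rose by 0.33 ± 0.09 (adjusted p = 0.0332) at 90 min and 0.29 ± 0.09 (adjusted p = 0.0186) at 24 h. Leaving out 1 of 5 arrays ended the 90 min call (adjusted p of 0.0785 to 0.137), and leaving out vehicle replicate 2 or 24 h replicate 1 or 2 ended the 24 h call (0.0547 to 0.0615), as did subtraction of array medians (0.108 at 90 min and 0.183 at 24 h). For NDUFAF7, a methyltransferase needed for assembly, the brightest probe set gave 0.11 ± 0.17 (adjusted p = 0.561) at 24 h, but 2 other probe sets fell, by 1.11 and 0.60 (adjusted p = 0.000609 and 0.00632). Its direction is therefore unsettled.

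**Figure D2:**
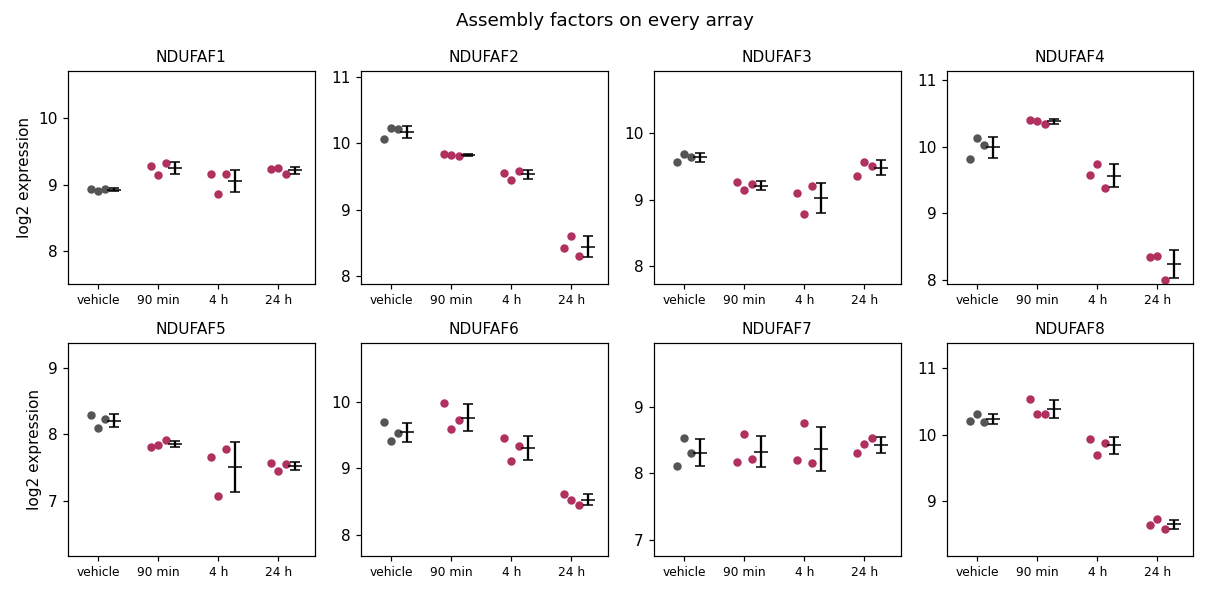
Log2 expression (y axis, 3.2 units in every panel) of the 8 assembly factors on each array of vehicle and of JS-K for 90 min, 4 h and 24 h (x axis), with the mean and SD (n = 3) to the right of the points. NDUFAF2, NDUFAF4, NDUFAF6 and NDUFAF8 are lowest at 24 h, NDUFAF3 overlaps vehicle again at 24 h, and NDUFAF1 stays near or above vehicle.

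In the N module 6 of 10 genes were lower at 24 h and none higher (60% lower, with 18.9% of all genes and 42.3% of those with a mean of at least 8; median −0.27). NDUFV1, which holds the flavin that accepts electrons from NADH, had levels of 11.33, 11.16 and 11.25 on the vehicle arrays, 11.04, 10.96 and 10.97 at 90 min, 10.94, 10.65 and 10.92 at 4 h and 10.49, 10.28 and 10.38 at 24 h. Every JS-K array lay below every vehicle array. The difference was −0.26 ± 0.08 (adjusted p = 0.0824) at 90 min, −0.41 ± 0.08 at 4 h and −0.86 ± 0.08 (adjusted p = 3.16e-06) at 24 h. NDUFS1, the largest iron-sulfur subunit, had levels of 10.61, 10.47 and 10.65 on the vehicle arrays, 10.42, 10.23 and 10.25 at 90 min, 10.32, 10.02 and 10.34 at 4 h and 10.37, 10.26 and 10.27 at 24 h. All JS-K arrays again lay below vehicle, but the differences were small and level over time, −0.28 ± 0.09 (adjusted p = 0.0861) at 90 min, −0.35 ± 0.09 (adjusted p = 0.0147) at 4 h and −0.28 ± 0.09 (adjusted p = 0.0307) at 24 h. Leaving out vehicle replicate 1 or 3 or 24 h replicate 2 or 3 ended the last call (adjusted p of 0.0879 to 0.11), and leaving out vehicle replicate 3 ended the 4 h call (0.0645). The other, dimmer probe sets of NDUFS1 gave −0.37 to −0.041 at 24 h (adjusted p of 0.168 to 0.856) and no call at 4 h. NDUFV2, an iron-sulfur partner of NDUFV1, fell by 0.31 ± 0.09 at 4 h and gave −0.18 ± 0.09 (adjusted p = 0.0993) at 24 h. Its 4 h call was lost without vehicle replicate 3 (adjusted p = 0.0776).

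NDUFV3, an accessory subunit beside NDUFV1 and NDUFV2, had levels of 9.49, 9.77 and 9.78 on the vehicle arrays, 9.75, 9.52 and 9.54 at 90 min, 9.22, 8.72 and 9.08 at 4 h and 9.07, 9.17 and 8.90 at 24 h. The 4 h and 24 h arrays lay below vehicle and the 90 min arrays overlapped it. NDUFV3 fell by 0.68 ± 0.13 at 4 h and 0.63 ± 0.13 at 24 h, and 24 h against 4 h gave 0.042 ± 0.13 (adjusted p = 0.885). A second probe set of NDUFV3 gave −0.56 at 24 h (adjusted p = 0.00619). For NDUFA7, an accessory subunit at the join of the N and Q modules, levels were 9.79, 9.97 and 9.99 on the vehicle arrays, 9.50, 9.36 and 9.35 at 90 min, 9.58, 8.79 and 9.33 at 4 h and 9.72, 9.65 and 9.65 at 24 h. All JS-K arrays lay below vehicle, with the lowest value on 4 h replicate 2. NDUFA7 fell by 0.68 ± 0.15 at 4 h and gave −0.51 ± 0.15 (adjusted p = 0.0559) at 90 min and −0.24 ± 0.15 (adjusted p = 0.191) at 24 h. NDUFS6 and NDUFA6 fell at 24 h by 0.31 ± 0.10 and 0.26 ± 0.07, NDUFA2 by 0.20 ± 0.07 at 4 h. A second probe set of NDUFA6, with a mean of 8.13, gave −0.0275 at 24 h (adjusted p = 0.848). NDUFS4 was called in no comparison, with differences from vehicle of −0.050 to −0.014. The calls of NDUFS6 (without any 1 of 5 arrays), NDUFA6 (without vehicle replicate 1) and NDUFA2 (without any 1 of 4 arrays) were each lost.

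Of the Q module 3 genes were measured, and all were lower at 24 h, against the same background shares of 18.9% and 42.3%. NDUFS7, which carries the last iron-sulfur cluster before ubiquinone, had levels of 10.43, 10.39 and 10.30 on the vehicle arrays, 9.82, 9.94 and 9.97 at 90 min, 9.97, 9.62 and 9.99 at 4 h and 9.73, 9.60 and 9.70 at 24 h. All JS-K arrays lay below vehicle. It fell from the earliest time on, by 0.47 ± 0.09 at 90 min (adjusted p = 0.00721), 0.52 ± 0.09 at 4 h and 0.70 ± 0.09 at 24 h. NDUFS3, a core subunit with which Q module assembly starts, gave −0.26 ± 0.10 (adjusted p = 0.148) at 90 min and fell by 0.54 ± 0.10 at 4 h and 1.00 ± 0.10 at 24 h (adjusted p = 4e-06). NDUFA5, an accessory subunit of the same module, was named after its values were seen. Levels of NDUFA5 were 10.67, 10.84 and 10.62 on the vehicle arrays, 10.57, 10.76 and 10.81 at 90 min, 10.77, 11.20 and 11.05 at 4 h and 10.11, 10.06 and 10.10 at 24 h. The 4 h arrays overlapped vehicle and the 24 h arrays lay below it. It gave 0.30 ± 0.10 (adjusted p = 0.0444) at 4 h, and fell by 0.62 ± 0.10 at 24 h. The 4 h call was lost without vehicle replicate 1 or 3 or 4 h replicate 2 or 3 (adjusted p of 0.0679 to 0.128), as it was with a constant spread (0.0739). A second probe set of NDUFA5 with a mean under 4 gave −0.12 at 24 h (adjusted p = 0.335). Across the 5 core subunits measured, all differences from vehicle were negative at each time, and 1 was called at 90 min (20%), 5 at 4 h (100%) and 4 at 24 h (80%). Of the genes with a mean of at least 8, 11.4%, 35.8% and 42.3% were called lower at these times, and of all genes 5.62%, 16.6% and 18.9%. Differences below 0 were found at these times for 2616, 3238 and 2961 of the 5159 genes with a mean of at least 8. Among all 19775 genes they were found for 6801, 6924 and 6100.

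**Figure D3:**
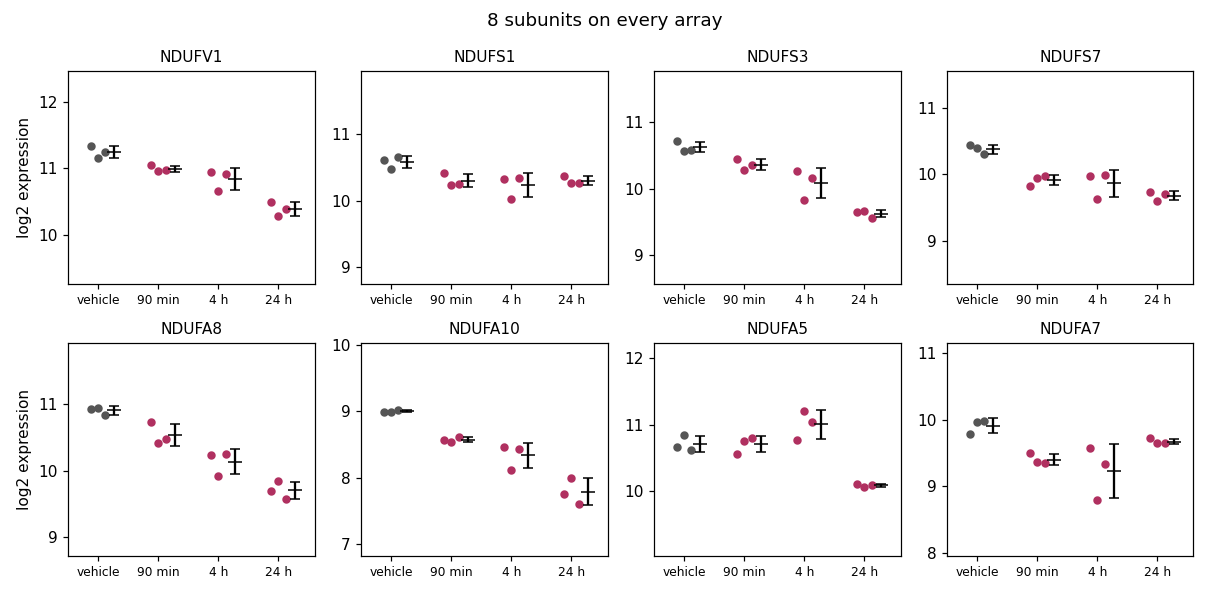
Log2 expression (y axis, 3.2 units in every panel) of 8 subunits on each array of vehicle and of JS-K for 90 min, 4 h and 24 h (x axis), with the mean and SD (n = 3) to the right of the points. NDUFV1, NDUFS3, NDUFA8 and NDUFA10 are lowest at 24 h, NDUFS1 and NDUFS7 lie below vehicle at all times, and NDUFA7 is lowest at 4 h.

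In the proximal membrane arm 4 of 8 genes were lower at 24 h (50%, median −0.36) and 4 did not pass, a share near the 42.3% of the genes with a mean of at least 8, with 18.9% of all genes. NDUFA10, on chromosome 2 (239892442 to 240025342), encodes an accessory subunit on the matrix face of this arm. Its levels were 8.99, 8.99 and 9.02 on the vehicle arrays, 8.57, 8.54 and 8.61 at 90 min, 8.46, 8.12 and 8.43 at 4 h and 7.76, 8.0 and 7.60 at 24 h. Each time lay wholly below the one before. NDUFA10 fell by 0.43 ± 0.11 at 90 min, 0.67 ± 0.11 at 4 h and 1.22 ± 0.11 at 24 h (adjusted p = 0.0303, 0.000963 and 2.28e-06). Leaving out any 1 of the 6 arrays ended the 90 min call (adjusted p of 0.0754 to 0.107), as did the replicate block (0.0526). NDUFA8, on chromosome 9 (122132466 to 122159779), is a subunit of the intermembrane space face with disulfide-bonded helices. The levels of NDUFA8 were 10.93, 10.94 and 10.83 on the vehicle arrays, 10.73, 10.41 and 10.47 at 90 min, 10.24, 9.92 and 10.24 at 4 h and 9.69, 9.84 and 9.58 at 24 h. The JS-K arrays again lay below vehicle at every time. It gave −0.37 ± 0.11 (adjusted p = 0.0508) at 90 min and fell by 0.77 ± 0.11 at 4 h and 1.20 ± 0.11 at 24 h. NDUFA9, at the join with the Q module, and NDUFA11 fell at 24 h by 0.72 ± 0.09 and 0.47 ± 0.08. For NDUFA1, NDUFA3, NDUFA13 and NDUFC1 the 24 h differences lay between −0.25 and 0.14 without a call. A second probe set of NDUFC1 gave 1.07 at 24 h (adjusted p = 0.00425).

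In the distal membrane arm 7 of 11 genes were lower at 24 h (63.6%, with 18.9% of all genes and 42.3% of those with a mean of at least 8) and none higher (17.8% and 28.8%), with a median of −0.39. NDUFB10 and NDUFB8 fell most, by 0.86 ± 0.11 and 0.69 ± 0.05, and a second probe set of NDUFB8 gave −0.75. The 90 min call of NDUFB8 was lost when vehicle replicates 1 or 3 or the 90 min replicates 1 or 2 were singly left out (adjusted p of 0.0874 to 0.108). NDUFB2, NDUFB9, NDUFB11 and NDUFB6 fell by 0.60 ± 0.10, 0.50 ± 0.05, 0.44 ± 0.09 and 0.39 ± 0.06. NDUFB5 was the other gene, with levels of 11.23, 11.22 and 11.16 on the vehicle arrays, 10.90, 10.75 and 10.88 at 90 min, 10.93, 10.83 and 10.89 at 4 h and 10.80, 10.84 and 10.79 at 24 h. Its JS-K arrays lay below vehicle at every time and overlapped each other. NDUFB5 fell by 0.36 ± 0.06 at 90 min, 0.32 ± 0.06 at 4 h and 0.39 ± 0.06 at 24 h, and 24 h against 4 h gave −0.070 ± 0.06 (adjusted p = 0.554). NDUFB4 fell by 0.20 ± 0.04 at 4 h and gave −0.041 ± 0.04 (adjusted p = 0.421) at 24 h. NDUFB1, NDUFB3 and NDUFB7 were called at no time.

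At 90 min the differences of the complex I genes were small, from −0.51 to 0.39. For 22 of the 40 genes the 90 min arrays all lay below the vehicle arrays, and for 2 above them. Arrays lay below in this way for 2783 of all 19775 genes and 1368 of the 5159 with a mean of at least 8. They lay above for 2545 and 1244. NDUFS7, NDUFA10, NDUFAF3, NDUFB5, NDUFAF2 and NDUFB8 were called lower, by 0.47 at most, and NDUFAF1 was called higher. The 6 lower genes were 15% of the 40, with a background of 5.62% of all genes and 11.4% of the genes with a mean of at least 8, and the 1 higher gene was 2.5%, with 4.03% and 10.8%. The median was −0.14 for subunits, 4 of them lower, and 0.081 for assembly factors, 2 lower and 1 higher. The second median has no settled sign: it was −0.11 with the mean of probe sets, 0.020 without vehicle replicate 1, 0.13 without vehicle replicate 2, 0.034 without 90 min replicate 2 and 0.13 without 90 min replicate 3. With the replicate number as a block, 7 genes were lower and 2 higher. The count of lower genes depended on the processing: it was 12 after quantile normalization, 1 with array medians subtracted and 13 without 4 h replicate 2. It was 2 without vehicle replicate 3 or 90 min replicate 2, and 3 without vehicle replicate 2 or 90 min replicate 3. NDUFB5 kept its call when any of these arrays was left out. Shares of all genes called were not counted for these alternative fits.

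At 4 h 20 of the 40 genes were lower (50%), with a background of 16.6% of all genes and 35.8% of those with a mean of at least 8. NDUFA5 was the 1 gene called higher (2.5%, with 23.9% and 17.8%). Subunits had a median of −0.20, with 15 of 32 lower, and assembly factors a median of −0.41, with 5 of 8 lower, beside 0.060 for all genes and −0.13 for genes with a mean of at least 8. NDUFA8, NDUFAF5, NDUFV3 and NDUFA7 fell most. Without 4 h replicate 2 the count was 17 (the share of all genes was not counted), and the subunit median was −0.12. That median was also −0.12 with the mean of probe sets, −0.13 after quantile normalization and −0.094 with array weights.

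**Figure D4:**
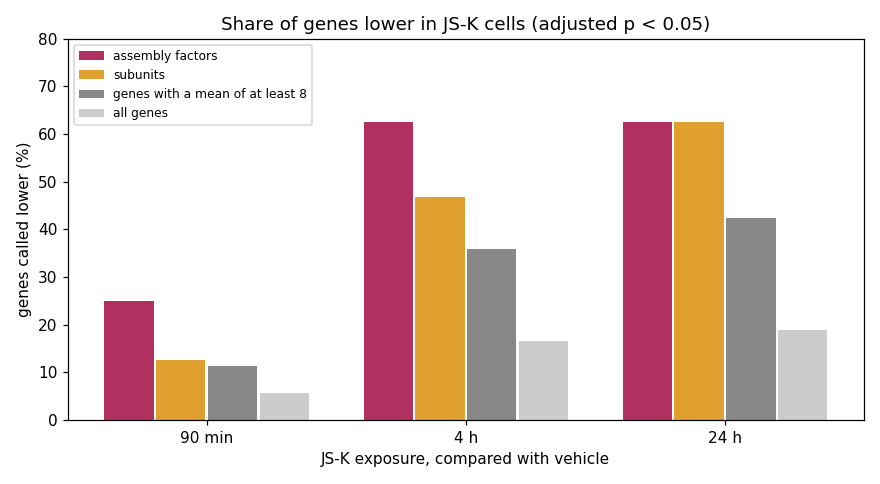
Share of genes called lower than vehicle (y axis, percent, adjusted p under 0.05) at 90 min, 4 h and 24 h of JS-K (x axis) for the 8 assembly factors, the 32 subunits, the 5159 genes with a mean of at least 8 and all 19775 genes. At 24 h the shares are 62.5%, 62.5%, 42.3% and 18.9% in that order.

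The times were also compared with each other. At 4 h against 90 min 6 genes were lower (15%, with a background of 7.25% of all genes and 19.2% of those with a mean of at least 8) and none higher (3.33% and 7.75%). The share lower was thus under that of the genes with a mean of at least 8. The lower genes were NDUFAF4, NDUFV3, NDUFAF8, NDUFAF6, NDUFA8 and NDUFAF2, 4 of them assembly factors, with falls of 0.82 to 0.29. Leaving out 1 array ended the calls of NDUFAF2 (any of 6 arrays), NDUFAF6 (any of 4), NDUFA8 (any of 3) and NDUFV3 (90 min replicate 1). The count was 2 without 90 min replicate 1, and 3 without 90 min replicate 3 or 4 h replicate 2. Shares of all genes were not counted there. At 24 h against 4 h 17 were lower (42.5%, with 10.7% and 28.0%), 13 subunits and 4 assembly factors. NDUFAF4, NDUFAF8, NDUFAF2 and NDUFA5 fell most, by 1.33 ± 0.12, 1.18 ± 0.09, 1.09 ± 0.08 and 0.92 ± 0.10. NDUFAF3 and NDUFB4 were higher (5%, with 12.8% and 28.0%), by 0.45 ± 0.10 and 0.16 ± 0.04, the call of NDUFB4 being lost without 24 h replicate 1 (adjusted p = 0.0719). The median of this comparison was −0.15 for subunits and −0.38 for assembly factors. The subunit median was −0.092 without 4 h replicate 1, −0.10 with the mean of probe sets and −0.26 with array weights. The comparisons share arrays, and their values are given side by side only. Mean spike levels also differed between these times, with 3.08 at 90 min, 7.02 at 4 h and 8.47 at 24 h. Spike level and time of JS-K cannot be told apart here, and the part of spikes was not tested.

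By their calls against vehicle the genes took several courses, and the share of all genes that took each course was not counted. At 90 min, 4 h and 24 h, 11.4%, 35.8% and 42.3% of the genes with a mean of at least 8 were called lower. Over all genes the shares were 5.62%, 16.6% and 18.9%. NDUFA10, NDUFAF2, NDUFB5, NDUFB8 and NDUFS7 were lower at all 3 times. Another 10 genes, among them NDUFAF4, NDUFAF8, NDUFV1 and NDUFS3, were lower at 4 h and 24 h, and 9, among them NDUFAF6, NDUFA9, NDUFA12 and NDUFB9, at 24 h alone. NDUFA2, NDUFA7, NDUFV2, NDUFB4 and NDUFAF3 were lower at 4 h and not called at 24 h. A further 9 genes were called at no time, of which 8 are subunits, and NDUFA5 and NDUFAF1 took other courses. A missing call does not show that a gene was unchanged.

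Other genes of the pathway were read from lists chosen with earlier results known. A further list held 13 genes of complex I, assembly factors and NDUFAB1. NDUFAB1, the acyl carrier protein, is a subunit that the symbol rule left out, and it was called lower at 4 h and 24 h. Of the 13 genes, 10 were lower and 1 higher at 24 h (median −0.83), 9 lower at 4 h and 2 at 90 min. These are 76.9%, 69.2% and 15.4% lower, with 42.3%, 35.8% and 11.4% of the genes with a mean of at least 8 and 18.9%, 16.6% and 5.62% of all genes, and the share at 90 min is near the first background. TMEM186, of the complex that builds the proximal membrane arm with NDUFAF1, fell by 2.22 ± 0.10 at 24 h, DMAC1, a distal membrane arm factor, by 1.65 ± 0.14 and NUBPL, which delivers iron-sulfur clusters, by 1.59 ± 0.12. Of 7 measured genes of complex II, which passes electrons from succinate to ubiquinone, 4 were lower and 1 higher at 24 h (median −0.43). The shares of 57.1% lower and 14.3% higher stand beside 42.3% and 28.8% of the genes with a mean of at least 8 and 18.9% and 17.8% of all genes. The assembly factors SDHAF1, SDHAF4 and SDHAF3 fell by 1.18 ± 0.12, 1.03 ± 0.18 and 0.96 ± 0.16. Of 11 transcriptional regulators of respiratory genes, 7 were lower and 1 higher at 24 h (median −1.28), or 63.6% and 9.09%, beside the same backgrounds. The coactivators PPARGC1B and PPRC1 fell by 2.03 ± 0.21 and 1.74 ± 0.15, and TFAM, which packages and transcribes mitochondrial DNA, by 1.69 ± 0.14. PPARGC1B stood at 6.52 in vehicle and at 4.49 at 24 h, near the level of 4 under which signal is low. Some genes of these lists, such as SDHAF4, SDHAF2, PPARGC1A and ESRRA, had means under 8 in every group. The genes with a mean of at least 8 are therefore not a matched background for these lists. NRF1 and YY1, whose motifs were searched above, were named after their values were seen: NRF1 rose by 0.60 ± 0.13 at 24 h, and YY1 fell by 0.58 ± 0.08.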

How the data were processed

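The authors deposited 1 log2 value per probe set and array, made with GCRMA in Affymetrix Expression Console, per the submitters' processing notes; versions are not given in the sources used here. Of 54675 probe sets, the platform annotation gave 41097 a single gene symbol, and the brightest of these on average over 12 arrays stood for its gene. No further normalization or filter was applied. Differences came from limma 3.58.1 under R 4.3.3, using eBayes with a trend, with all 12 arrays in 1 fit of 8 residual degrees of freedom, and Benjamini-Hochberg adjustment over 19775 genes per comparison. The labels call the replicates biological without naming separate cultures, so p-values cover only the spread among these arrays, which may be technical, and the number of arrays limits the precision.

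The fit was tested on simulated data, where it recovered 89 of 100 changes of 2-fold and 99 of 100 of 4-fold, and called 10 unchanged genes. Smaller changes, such as most of those reported here, were not simulated. The members, role lists and tests were chosen with earlier results of these data known. Array values are given for up to 4 called, non-overlapping rises and falls per comparison with vehicle and for fixed genes (NDUFAF1, NDUFAF3, NDUFAF4, NDUFV1 and NDUFS1); up to 3 called genes per further list are named. Deviations from group means of same-numbered arrays correlated between −0.134 and 0.369 over genes (18 pairs). For 90 min and vehicle alone, all 3 pairs exceeded 0.1 (0.128 to 0.229), so the blocked counts stand beside that result. Alternatives were averaging or exchanging probe sets, quantile normalization, array medians subtracted, removal of dim genes, a constant spread, array weights, the replicate block, the 6 arrays compared alone, and leaving out each array. Restriction to genes averaging at least 4 and omission of 4 h replicate 2 from comparisons without it were added after seeing the data. Figures used matplotlib 3.10.9.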

Additional observations from a re-analysis of the deposited data

Results flagged for a closer look

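NDUFA5 differed from vehicle in opposite directions at 4 h (0.30) and at 24 h (−0.62), and 24 h against 4 h gave −0.92 (adjusted p = 2.55e-05). The 4 h arrays overlapped the vehicle arrays, and the 4 h call was lost in 9 of 16 alternatives, 4 of which left out 1 array.

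Some unused probe sets of genes that were not called at 24 h differed from vehicle there. For NDUFAF7 they gave −1.11 and −0.60, and for NDUFC1 1.07.

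The probe sets of poly-A spikes, which enter no comparison, averaged 7.02 at 4 h and 8.47 at 24 h, above 3.04 in vehicle. Spike level and JS-K exposure cannot be told apart at these times. The part of spikes in the results was not tested.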

How the results depend on the processing

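Counts of lower genes at 24 h (24 to 32) and 4 h (14 to 24) against vehicle held within 1.5 times under the alternatives that keep all arrays of the comparison. Of the called differences, set apart from choices of probe set, 22 of 26 at 24 h, 13 of 21 at 4 h and 1 of 7 at 90 min against vehicle kept their call in all alternatives, as did 2 of 6 for 4 h against 90 min and 16 of 19 for 24 h against 4 h, and none reversed. Counts at 90 min moved most. Lower genes were 12 after quantile normalization, 1 with array medians subtracted, 20 with array weights (whose estimation stopped before convergence), 13 with the 6 arrays alone, 11 among genes with a mean of at least 4 and 13 without 4 h replicate 2. Higher genes were 0 with medians subtracted, 4 with array weights and 2 with each of the dimmest genes removed, the mean of probe sets, the replicate block, the 6 arrays alone, genes with a mean of at least 4 and without 4 h replicate 2. Higher genes at 4 h were 0 with a constant spread, medians subtracted or the 6 arrays alone, 2 after quantile normalization and 7 with array weights. At 24 h they were 0 with medians subtracted, 2 with the mean of probe sets, the 6 arrays alone or without 4 h replicate 2, and 3 after quantile normalization or with array weights. For 4 h against 90 min, lower genes were 3 with medians subtracted or the 6 arrays alone and 11 with array weights, and higher genes 9 with array weights and 1 among genes with a mean of at least 4. For 24 h against 4 h, 26 were lower with array weights, and 1 was higher with the mean of probe sets, medians subtracted or the 6 arrays alone. The mean of probe sets gave medians of −0.094 (90 min) and −0.28 (24 h) for subunits and −0.11 (90 min, reversed) and −0.51 (24 h) for assembly factors. The last was −0.74 after quantile normalization and −0.92 with medians subtracted. The cause of these changes was not tested. Shares of all genes called were not counted under any alternative, here or with 1 array left out. A changed count of members may therefore not be particular to them.

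With 1 array left out, higher genes ranged from 0 to 1 in each comparison with vehicle and in 4 h against 90 min, and from 1 to 5 in 24 h against 4 h. Lower genes ranged from 2 to 4 at 90 min, from 14 to 27 at 4 h, from 22 to 25 at 24 h, from 2 to 7 for 4 h against 90 min and from 15 to 21 for 24 h against 4 h. The median of assembly factors ranged from −0.91 to −0.79 at 24 h and from 0.020 to 0.13 at 90 min, and that of subunits from −0.23 to −0.12 at 4 h and from −0.22 to −0.092 for 24 h against 4 h. The replicate block changed no other count by over 1.5 times and gave 21 lower genes at 4 h and 25 at 24 h.

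Of 37 other probe sets, 21 had means under 4, and 31 of 32 reversed signs came from these. At 90 min they gave 0.030, 0.0094 and 0.024 for NDUFA10. At 4 h they gave 0.0091, 0.091, 0.072 and 0.075 for NDUFA10, 0.058 and 0.059 for NDUFA2, 0.0052 for NDUFA7, 0.20 for NDUFAF5, 0.15 and 0.038 for NDUFAF8, 0.079 for NDUFB6, 0.045 for NDUFS7 and 0.039 for NDUFV1. At 24 h they gave 0.065, 0.046 and 0.056 for NDUFA10, 0.019 for NDUFA11, 0.14 for NDUFAF5, 0.11 and 0.027 for NDUFAF8, 0.045 for NDUFB2, 0.042 for NDUFB6, 0.024 for NDUFS7 and 0.032 for NDUFV1. For 4 h against 90 min NDUFAF8 gave 0.13 and 0.024. For 24 h against 4 h NDUFA11 gave 0.035 and NDUFB4 −0.090. The remaining reversed sign, 0.48 for NDUFB8 at 24 h against 4 h, came from a probe set with a mean of 4.67.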
